A study of Homo sapiens with 9 samples.

Results

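The 10 genes described here, NCL, NPM1, FBL, NOP56, NOP58, DKC1, POLR1A, POLR1B, RRP9 and WDR43, encode nucleolar proteins of ribosome assembly. They were chosen by gene symbol, are 10 of the 60651 gene rows in the count table, and all 10 were measured in every library. RNA came from HCT116, an established line of human colorectal cancer cells that the labels give as wild type, in 9 libraries. The labels place them in 3 groups of 3: a control hairpin with the solvent DMSO (shCTRL DMSO), a hairpin against the dopamine transporter gene SLC6A3 with DMSO (shSLC6A3 DMSO), and the control hairpin with an agent given only as VXN (shCTRL VXN). The title of shCTRL VXN replicate 3 spells the agent VNN. The labels do not state hairpin sequences, clones, doses or times. According to the title of the series, the aim was to learn what loss of the dopamine transporter does to such cells. Whether replicates came from separate cultures is not stated, and the p-values cover the spread from library to library alone, a spread that can be purely technical.

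Ribosomes begin in the nucleolus. There RNA polymerase I copies the ribosomal DNA into a long precursor. Small nucleolar ribonucleoproteins (snoRNPs) guide methylation and pseudouridylation of that RNA, while the small subunit processome folds and cuts it. Fast-growing cells, colorectal cancer cells among them, make many ribosomes, and many genes of this pathway are known targets of the transcription factor MYC.

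The labels and the authors' 2 deposited comparison tables disagree on which libraries belong together. A rerun of DESeq2 on 3 sets of columns gave all 38907 p-values of each table to within 1e-06. The shCTRL V set takes replicate 3 of shCTRL DMSO, then replicate 1 of shSLC6A3 DMSO, then replicate 3 of shCTRL VXN. Replicates 1 and 2 of shCTRL DMSO and replicate 1 of shCTRL VXN form the shDAT D set. The shCTRL D set, which both tables use as their control, takes replicates 2 and 3 of shSLC6A3 DMSO and replicate 2 of shCTRL VXN. Libraries are called by their labels, values of a set are given in the order just listed, and which source is right is not decided here. SLC6A3 had 0 to 6 counts in each library, too few to check the labels. Within the shCTRL D set, shCTRL VXN replicate 2 stood apart from the other two libraries, for most of the 10 genes and over all features. Its chi-square per degree of freedom over all features, a measure of how far 2 libraries' counts differ, was 74.5 and 70.7 against the other shCTRL D libraries but 8.69, 9.87 and 11.8 against the 3 shDAT D libraries, so by this measure it resembled the set it is compared with. The main counts and the values of the 10 genes against this set are therefore given with and without it.

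Libraries held 30.25 M to 60.22 M counts. The 10 genes took between 0.2426% and 0.4769% of them, with 1819 counts for RRP9 in the shallowest case and 103397 for NCL in the deepest, and counting error is small at this depth. The epithelial markers EPCAM, KRT8, KRT18, CDH1, KRT19 and CLDN4 summed to 4390 to 5066 CPM (counts scaled to the usual fixed library total) in each library. Of the other cell types' markers, 3 of 4 for leukocytes, 4 of 5 for fibroblasts and 3 of 4 for endothelium lay under 1 CPM in all 9 libraries. The closest pair of libraries, shCTRL DMSO replicate 3 and shSLC6A3 DMSO replicate 1, still differed by more than sampling noise (chi-square per degree of freedom 1.34).

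Promoter sequence was available for 9 of the 10 genes in the RefSeq table of GRCh38.p14, as windows from 250 bases before to 50 after an annotated start. Both strands were searched for CACGTG, the palindromic E-box at which MYC and MAX are known to bind. FBL, RRP9 and WDR43 held it, 33.3% of the 9 genes, against 8.77% of 27305 genes in the table, 12.6% of those with a mean of at least 1 CPM in these libraries, and 30.2% of 116 other ribosome biogenesis genes. The 3 stretches with the E-box in capitals are shown with those before one start each of NCL and NPM1, the most abundant of the 10, which lack it. Each is written 5′ to 3′ on the gene's strand.
FBL, minus strand, chr19:39846368-39846439: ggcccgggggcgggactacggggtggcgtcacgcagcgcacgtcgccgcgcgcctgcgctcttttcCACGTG
RRP9, minus strand, chr3:51941904-51941964: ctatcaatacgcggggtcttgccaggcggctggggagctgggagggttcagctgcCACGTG
WDR43, plus strand, chr2:28894607-28894675: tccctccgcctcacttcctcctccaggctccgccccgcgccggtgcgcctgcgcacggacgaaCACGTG
NCL, minus strand, chr2:231464485-231464544: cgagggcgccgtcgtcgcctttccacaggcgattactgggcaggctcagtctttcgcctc
NPM1, plus strand, chr5:171387789-171387848: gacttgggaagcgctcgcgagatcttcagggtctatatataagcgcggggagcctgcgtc
The E-box began at transcribed base 7 in FBL and at base 4 in WDR43, and 5 bases before the start in RRP9. None of the 3 lay wholly upstream of the start. A match describes these letters and is not evidence of binding.

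Per kilobase of the principal transcript, NPM1 was the most abundant of the 10 genes, at 701 ± 184 CPM per kb (SD, n = 9 libraries), and NCL followed at 320.1 ± 81.5. FBL stood at 157 ± 52.0 CPM per kb, NOP56 at 108 ± 25.7, NOP58 at 67.7 ± 15.6 and DKC1 at 62.5 ± 8.30. WDR43 reached 52.2 ± 7.43 CPM per kb, RRP9 37.5 ± 6.54, POLR1B 19.7 ± 4.31 and POLR1A 8.21 ± 1.37. Each gene lay above the next in 9 of 9 libraries, except NOP58 above DKC1, which held in 6 of 9. The nucleolar chaperones thus led and the polymerase subunits came last. With the length of all annotated exons instead, WDR43 moved to the fifth place, between NOP56 and NOP58.

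**Figure D1:**
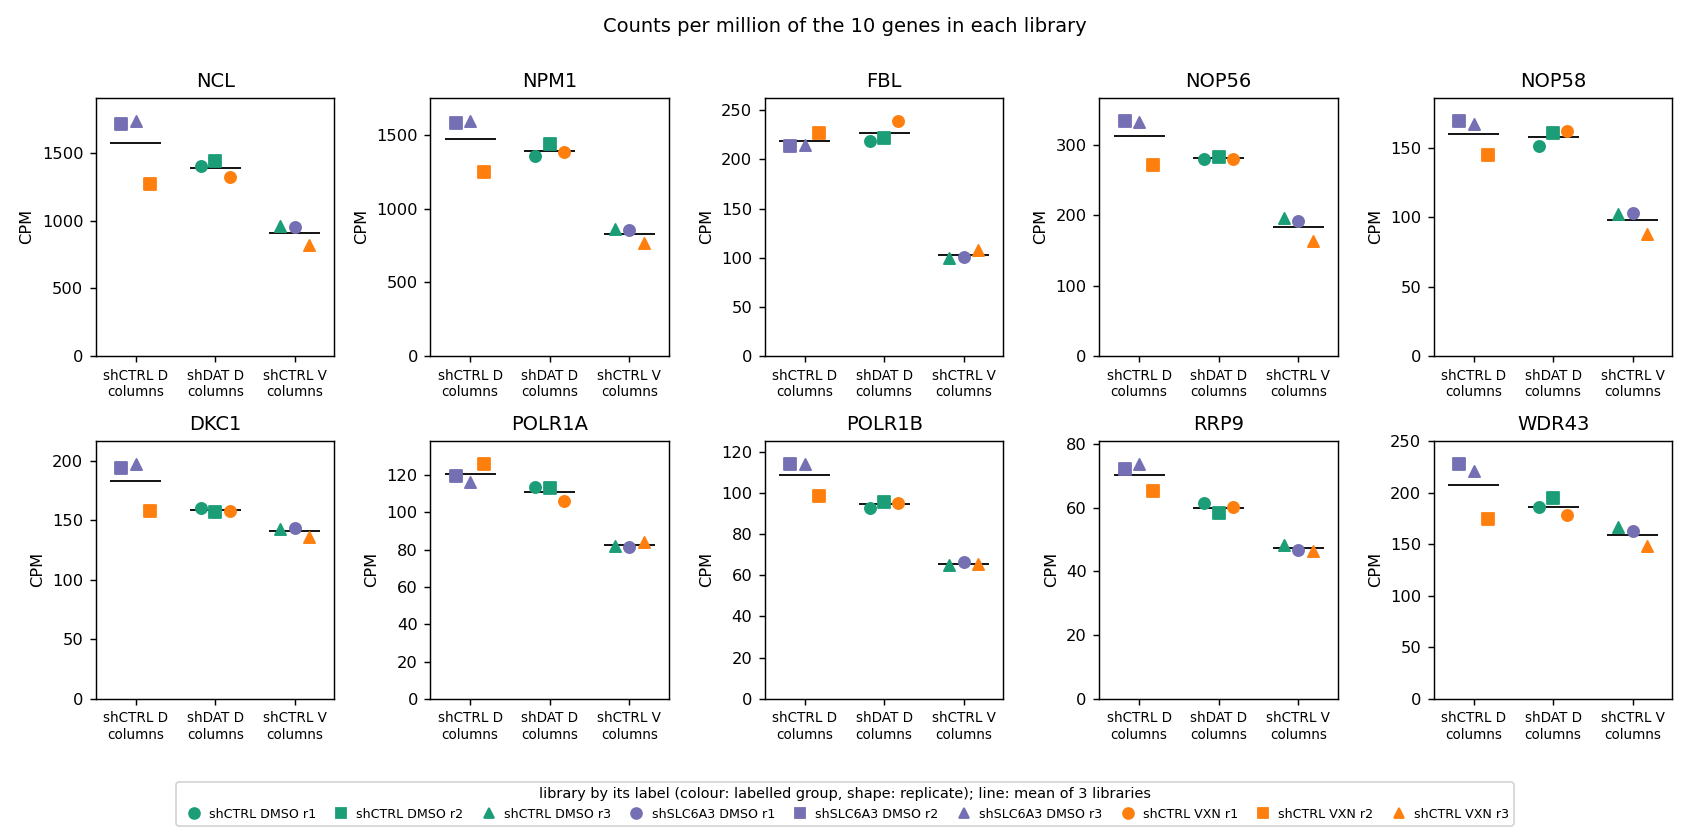
CPM (counts scaled to a fixed library total, linear axis from 0) of each gene in each library, arranged by the column sets of the deposited tables, with colour for the labelled group, shape for the replicate and a line for the mean of 3 libraries. For all 10 genes the 3 libraries of the shCTRL V set lie below the other 6, and in the shCTRL D set shCTRL VXN replicate 2 lies apart for most genes.

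The comparison that the authors named shCTRL V against shCTRL D showed lower levels of all 10 genes. The authors' deposited table calls 10 of 10 lower at an adjusted p under 0.05, where 22.7% of the 24274 features with an adjusted p were lower and 44.0% were called in either direction. Their log2 fold changes ran from -1.07 for FBL to -0.36 for DKC1 in the authors' deposited table, with a median of -0.71, against -0.0016 over all features. The 3 shCTRL V libraries lay below all 6 others for 10 of 10 genes, a pattern that 34.0% of 14663 genes with a mean of at least 1 CPM also showed. In these bulk samples, fewer cells making an RNA and less RNA per cell cannot be told apart.

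POLR1A encodes the largest subunit of RNA polymerase I (GRCh38 chromosome 2, 86020216 to 86106155, minus strand). It stood at 82.0, 81.5 and 84.2 CPM in the shCTRL V set and at 120, 116 and 126 CPM in the shCTRL D set. The sets did not overlap, and the mean of 82.6 ± 1.46 CPM (SD, n = 3) was 68.5% of 121 ± 4.83 (SD, n = 3). The authors' deposited table gives a log2 fold change of -0.53 (SE 0.054, adjusted p = 2.12e-22). POLR1B (chromosome 2, 112541915 to 112577150, plus strand), the other large subunit that forms the catalytic centre, gave 64.7, 66.3 and 65.5 CPM in the shCTRL V set. Its shCTRL D libraries gave 114, 114 and 98.6 CPM, all above that range. POLR1B changed by -0.72 (SE 0.091, adjusted p = 9.60e-15) in the authors' deposited table, with a shCTRL V mean at 60.2% of the shCTRL D mean. The log2 ratio of POLR1A to POLR1B in CPM was 0.30 to 0.36 in the shCTRL V set, 0.16 to 0.29 in the shDAT D set and 0.031 to 0.35 in the shCTRL D set, where the highest value, that of shCTRL VXN replicate 2, lay within the shCTRL V range.

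FBL, fibrillarin, is the methyltransferase of the box C/D snoRNPs, which place 2′-O-methyl groups on ribosomal RNA (chromosome 19, 39834458 to 39846414, minus strand). It had the largest fall of the 10 genes. FBL stood at 99.7, 100.4 and 108 CPM in the shCTRL V set and at 213, 215 and 227 CPM in the shCTRL D set. The means of 102.7 ± 4.64 and 218 ± 7.22 CPM (SD, n = 3 each) put the shCTRL V set at 47.1% of the shCTRL D set. The authors' deposited table gives FBL a log2 fold change of -1.07 (SE 0.067, adjusted p = 4.00e-57). The promoter of FBL is one of the 3 printed above with an E-box.

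NOP56 (chromosome 20, 2652145 to 2658393, plus strand) and NOP58 (chromosome 2, 202265716 to 202303666, plus strand) are the paired core proteins on which a box C/D snoRNP is built. NOP56 stood at 196, 192 and 163 CPM in the shCTRL V set and at 334, 333 and 272 CPM in the shCTRL D set. NOP58 stood at 102, 103 and 88.0 CPM against 169, 167 and 145 CPM. In both sets the library labelled shCTRL VXN was the lowest for each gene, and the sets did not overlap. The authors' deposited table gives NOP56 -0.75 (SE 0.11, adjusted p = 9.13e-11) and NOP58 -0.70 (SE 0.10, adjusted p = 4.10e-11). NOP56 and NOP58 stayed close in proportion, with a log2 ratio of CPM between 0.79 and 0.997 in all 9 libraries. The ratio was 0.89 to 0.94 in the shCTRL V set and 0.91 to 0.997 in the shCTRL D set. In the shDAT D set it was 0.79 to 0.89, below the shCTRL D range. FBL did not keep its proportion to NOP58: the log2 ratio ran from -0.037 to 0.30 in the shCTRL V set, from 0.33 to 0.65 in the shCTRL D set and from 0.47 to 0.56 in the shDAT D set.

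DKC1, dyskerin, is the pseudouridine synthase of the box H/ACA snoRNPs and also part of telomerase (chromosome X, 154762742 to 154777689, plus strand). It changed least among the 10 genes, with 143, 144 and 136 CPM in the shCTRL V set against 194, 197 and 158 CPM in the shCTRL D set. The sets did not overlap, but shCTRL VXN replicate 2 lay nearer to the shCTRL V set than to the other two shCTRL D libraries. DKC1 has a log2 fold change of -0.36 (SE 0.10, adjusted p = 0.00132) in the authors' deposited table. Without shCTRL VXN replicate 2, the DESeq2 rerun gave -0.50 (SE 0.045). Between both kinds of snoRNP enzyme the proportion shifted: the log2 ratio of FBL to DKC1 was -0.52 to -0.34 in the shCTRL V set, 0.12 to 0.52 in the shCTRL D set and 0.45 to 0.60 in the shDAT D set.

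RRP9, a protein of the U3 snoRNP in the small subunit processome (chromosome 3, 51933430 to 51941941, minus strand), had the fewest counts of the 10. It stood at 48.4, 46.7 and 46.5 CPM in the shCTRL V set and at 72.0, 73.6 and 65.2 CPM in the shCTRL D set. WDR43, a processome protein of the t-UTP group, which is tied to transcription of the precursor (chromosome 2, 28894643 to 28948222, plus strand), stood at 166, 163 and 149 CPM against 228, 221 and 175 CPM. Neither gene had overlapping sets, though for WDR43 the gap between shCTRL DMSO replicate 3 and shCTRL VXN replicate 2 was narrow. RRP9 has a log2 fold change of -0.56 (SE 0.086, adjusted p = 2.38e-10) and WDR43 one of -0.37 (SE 0.12, adjusted p = 0.00347) in the authors' deposited table. The DESeq2 rerun without shCTRL VXN replicate 2 gave WDR43 -0.52 (SE 0.056). The 3 genes with a printed E-box, FBL, RRP9 and WDR43, thus included the largest fall and one of the smallest.

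NCL, nucleolin, is an RNA-binding protein needed for transcription and early processing of the precursor (chromosome 2, 231453531 to 231483641, minus strand). NCL stood at 958, 952 and 818 CPM in the shCTRL V set and at 1717, 1736 and 1273.5 CPM in the shCTRL D set. NPM1, nucleophosmin, is the chaperone that forms much of the outer granular layer of the nucleolus (chromosome 5, 171387116 to 171411137, plus strand). It stood at 859.9, 854 and 768 CPM against 1583, 1595 and 1248 CPM. For both chaperones the shCTRL D libraries lay far above the shCTRL V range, with shCTRL VXN replicate 2 the lowest of them. The authors' deposited table gives NCL -0.77 (SE 0.13, adjusted p = 1.32e-08) and NPM1 -0.82 (SE 0.12, adjusted p = 3.55e-12). The DESeq2 rerun without shCTRL VXN replicate 2 gave -0.95 (SE 0.063) for NCL and -0.97 (SE 0.052) for NPM1.

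**Figure D2:**
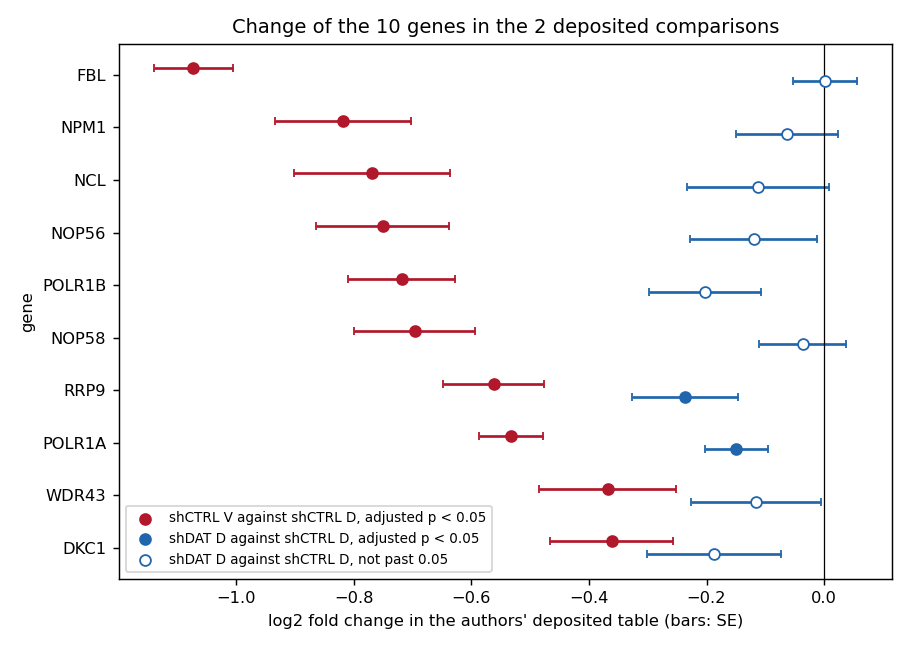
Log2 fold change of each gene in the authors' deposited tables (horizontal axis, bars are standard errors), for shCTRL V against shCTRL D in red and shDAT D against shCTRL D in blue, with filled points at an adjusted p under 0.05. All 10 red points are filled, from -1.07 for FBL to -0.36 for DKC1, and of the blue points POLR1A and RRP9 are filled; both comparisons use the same shCTRL D libraries.

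All 10 genes were also called lower in a DESeq2 rerun without shCTRL VXN replicate 2, with log2 fold changes from -1.09 for FBL to -0.50 for DKC1 and a median of -0.82. NOP56 had -0.89, POLR1B -0.83, NOP58 -0.81, RRP9 -0.65 and POLR1A -0.54 in that rerun. In that rerun 23.1% of 25326 features were lower and 45.3% were called in either direction. Markers of growth moved with these genes. MKI67, a marker of dividing cells, averaged 68.6 ± 6.79 CPM in the shCTRL V set against 579 ± 22.7 CPM in the shCTRL D set (SD, n = 3 each), and the authors' deposited table gives it -3.06 (SE 0.089). MYC averaged 225 ± 2.94 CPM against 402 ± 52.7 CPM (SD, n = 3 each), with -0.82 (SE 0.080, adjusted p = 9.45e-24) in the authors' deposited table. Without shCTRL VXN replicate 2 the DESeq2 rerun gave MKI67 -3.07 (SE 0.076) and MYC -0.75 (SE 0.053). The summed epithelial markers were 4945 to 5066 CPM in the shCTRL V set and 4450 to 4500 CPM in the shCTRL D set, and these ranges did not overlap. Summed leukocyte markers were 3.34 to 3.85 CPM in the shCTRL V set and 3.51 to 6.58 CPM in the shCTRL D set, and summed fibroblast markers 32.2 to 46.7 and 18.9 to 37.2 CPM. Their part in the result, and that of MKI67 and MYC, was not tested.

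The rest of the pathway was followed with 138 other ribosome biogenesis genes, all matched in the table. In the authors' deposited table for shCTRL V against shCTRL D, 97 of 138 were lower, 6 were higher and 35 were not called, with a median log2 fold change of -0.52. By stage, 8 of 13 polymerase I subunits and factors were lower, 9 of 13 snoRNP proteins, and 6 of 9 scaffold proteins and chaperones. The small subunit processome had 28 of 37 lower and large subunit assembly 29 of 37, neither with a gene higher. Exosome and trimming genes were lower in 9 of 14 cases, and late maturation and export genes in 8 of 15, with the smallest median of the stages, -0.25. Without shCTRL VXN replicate 2 the DESeq2 rerun called 122 of the 138 lower and 6 higher and left 10 uncalled, with a median of -0.62. Large subunit assembly then had 37 of 37 lower, the processome 36 of 37, snoRNP proteins 11 of 13, polymerase I genes 9 of 13, scaffold genes 7 of 9, exosome genes 11 of 14 and late genes 11 of 15.

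Among the genes with the lowest adjusted p in each stage, several fell further than any of the 10. TCOF1 has -1.70 (SE 0.11) in the authors' deposited table; it encodes treacle, a factor of ribosomal DNA transcription. NPM3, a relative of nucleophosmin, has -1.60 (SE 0.073) there. BOP1, of the complex that cuts and folds the large subunit RNA, has -1.60 (SE 0.077), and the remodelling ATPase MDN1 -1.61 (SE 0.090). SPATA5, an ATPase of late large subunit maturation, has -1.63 (SE 0.14) in the authors' deposited table. Polymerase I itself was represented by POLR1E at -1.11 (SE 0.087) and CD3EAP, now POLR1G, at -1.29 (SE 0.15). RUVBL1 and RUVBL2, ATPases that help load snoRNP proteins and also serve chromatin remodelling, both have -1.08 (SE 0.10 and 0.074) in the authors' deposited table. The exosome subunits EXOSC9 and EXOSC2 stood at -1.22 (SE 0.12) and -1.05 (SE 0.099), the processome proteins UTP4 and TBL3 at -0.88 (SE 0.066) and -0.68 (SE 0.055), and the exporter XPO1 at -0.62 (SE 0.089).

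The 6 genes called higher lay in 4 of the 7 stages: 2 scaffold, 2 late, 1 polymerase I and 1 exosome gene. The same 6 were called higher without shCTRL VXN replicate 2, where EFL1 had 0.29 (SE 0.071) in the DESeq2 rerun. The authors' deposited table gives RIOK3, a kinase of cytoplasmic small subunit maturation, 1.10 (SE 0.074), and the exosome subunit EXOSC6 0.69 (SE 0.067). EFL1, a GTPase that helps release EIF6 from the large subunit, has 0.42 (SE 0.12), and TAF1C, of the polymerase I selectivity factor, 0.18 (SE 0.064). NOP53, a large subunit assembly factor, has 0.24 (SE 0.073) in the authors' deposited table, and NOL3, listed for its name but known as a repressor of apoptosis, has 0.53 (SE 0.11).

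**Figure D3:**
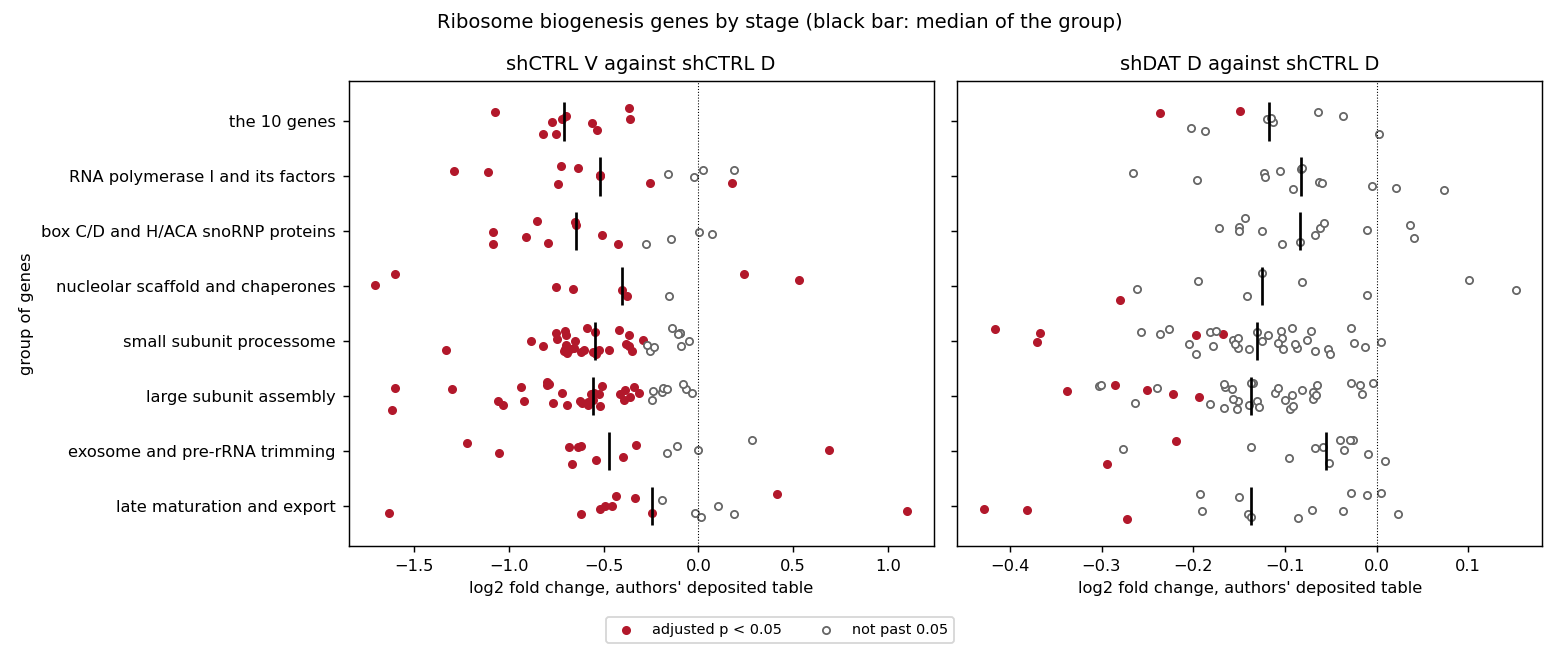
Log2 fold change in the authors' deposited tables of the 10 genes and of 138 other ribosome biogenesis genes by stage (each point a gene, filled red at an adjusted p under 0.05, black bar the median of the stage). In shCTRL V against shCTRL D (left) the medians run from -0.64 for snoRNP proteins to -0.25 for late maturation; in shDAT D against shCTRL D (right, narrower axis) 16 of the 138 are called, all lower.

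The comparison named shDAT D against shCTRL D gave small differences for the 10 genes. The authors' deposited table calls 2 of 10, POLR1A at -0.15 (SE 0.054, adjusted p = 0.0389) and RRP9 at -0.24 (SE 0.091, adjusted p = 0.0352), both lower. Of the 10403 features with an adjusted p in that table, 6.62% were called, 5.62% lower. The other 8 ran from -0.20 (SE 0.096, adjusted p = 0.0533) for POLR1B to 0.0021 (SE 0.054, adjusted p = 0.981) for FBL in the authors' deposited table. The median of the 10 was -0.12, beside -0.041 over all features. edgeR on the same columns called 0 of the 10 and 0 of 20402 features, with 4251 at an unadjusted p under 0.05.

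The shDAT D libraries were close to each other. POLR1A stood at 114, 113 and 106 CPM there, POLR1B at 92.7, 95.6 and 95.0 CPM and RRP9 at 61.4, 58.3 and 60.1 CPM. For these 3 genes all shDAT D libraries lay below all shCTRL D libraries, as they did for 12.5% of the 14663 genes. NCL stood at 1403, 1442 and 1320 CPM, NPM1 at 1358, 1440 and 1384 CPM, and NOP56 at 280.4, 283 and 279.9 CPM. NOP58 gave 151, 160.3 and 162 CPM, DKC1 160.3, 157 and 158 CPM and WDR43 186, 194 and 178 CPM. All but FBL, 9 of 10 genes, lay below shSLC6A3 DMSO replicates 2 and 3 in all shDAT D libraries, as 34.9% of the 14663 genes did. For the 6 genes just given the shDAT D range did not lie below shCTRL VXN replicate 2. FBL, at 218, 222 and 239 CPM, was the exception, since its shDAT D libraries lay above the 213 and 215 CPM of shSLC6A3 DMSO replicates 2 and 3.

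The calls of this comparison moved most with shCTRL VXN replicate 2. Relative to the mean of the other two shCTRL D libraries, that library held 73.8% for NCL, 77.9% for WDR43, 78.5% for NPM1, 80.9% for DKC1 and 81.4% for NOP56. It held 85.9% for NOP58, 86.6% for POLR1B and 89.6% for RRP9, but 105.8% for FBL and 106.7% for POLR1A. Set beside the shDAT D libraries, it fell below their range for NCL, NPM1, NOP56, NOP58 and WDR43, within it for FBL and DKC1, and above it for POLR1A, POLR1B and RRP9. Its total of 53.47 M counts lay within the range of the other libraries.

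Without that library, the DESeq2 rerun called 9 of the 10 genes lower in shDAT D, where 21.1% of 22454 features were lower and 34.9% were called in either direction. NCL had a log2 fold change of -0.40 (SE 0.063, adjusted p = 2.14e-09) and DKC1 -0.39 (SE 0.045, adjusted p = 1.40e-16). RRP9 gave -0.37 (SE 0.055), POLR1B -0.36 (SE 0.047), WDR43 -0.35 (SE 0.056), NOP56 -0.34 (SE 0.065) and NPM1 -0.28 (SE 0.052). The smallest called values were NOP58 at -0.18 (SE 0.066, adjusted p = 0.0212) and POLR1A at -0.17 (SE 0.049, adjusted p = 0.00187). FBL stayed at -0.0067 (SE 0.057, adjusted p = 0.949). The remaining control libraries are then both labelled shSLC6A3 DMSO, and the spread of that set rests on 2 libraries. These differed little beyond sampling noise, with a chi-square per degree of freedom of 1.45. The small SEs and p-values of this rerun partly reflect that narrow spread, and whether it covers differences between cultures is not known. Leaving out any one of the other 5 libraries gave 0 called genes of the 10. Those were replicates 1 and 2 of shCTRL DMSO, 2 and 3 of shSLC6A3 DMSO, and 1 of shCTRL VXN. POLR1A and RRP9 were thus not called there either. RRP9 had no adjusted p without shCTRL DMSO replicate 2 or without shCTRL VXN replicate 1. The log2 fold change of POLR1A stayed between -0.19 and -0.15 in all reruns that left out a library. The share of all features called in these 5 reruns is not given here. MKI67 averaged 582 ± 52.7 CPM in shDAT D and 579 ± 22.7 CPM in shCTRL D (SD, n = 3 each), with -0.024 (SE 0.066, adjusted p = 0.738) in the authors' deposited table.

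**Figure D4:**
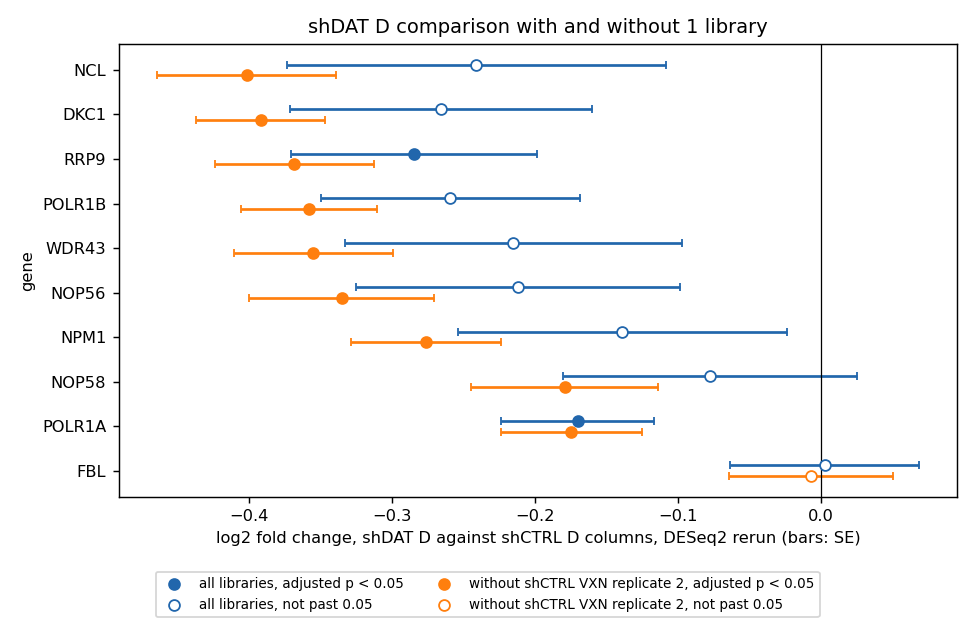
Log2 fold change of the 10 genes for shDAT D against shCTRL D in the DESeq2 rerun (bars are standard errors), with all libraries in blue and without shCTRL VXN replicate 2 in orange, filled at an adjusted p under 0.05. Leaving that library out takes the called genes from 2 to 9, and FBL stays near 0 in both.

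In the same comparison 16 of the 138 other ribosome biogenesis genes were lower, 0 were higher and 122 were not called in the authors' deposited table, with a median of -0.11. The 16 held 5 of 37 processome genes, 5 of 37 large subunit genes, 3 of 15 late genes, 2 of 14 exosome genes, 1 of 9 scaffold genes, and no polymerase I or snoRNP gene. EIF6, which keeps the subunits apart, had the largest value named, -0.43 (SE 0.13, adjusted p = 0.0215) in the authors' deposited table. The processome genes DDX49 at -0.42 (SE 0.16), UTP20 at -0.37 (SE 0.14) and NOL6 at -0.37 (SE 0.13) followed among those named. After them came URB2 at -0.34 (SE 0.11), EXOSC1 at -0.29 (SE 0.14), TCOF1 at -0.28 (SE 0.12) and RRP12 at -0.27 (SE 0.10) in the authors' deposited table. DDX56 had -0.25 (SE 0.094), EXOSC4 -0.22 (SE 0.083) and TBL3 -0.17 (SE 0.055) in the authors' deposited table. Without shCTRL VXN replicate 2 the DESeq2 rerun called 106 lower and 2 higher, with a median of -0.30. Without any one of the other 5 libraries it called 0, and the share of all features called there is not given here.

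By the labels, none of the 10 genes passed the test. For shSLC6A3 DMSO against shCTRL DMSO, the question of the series title, edgeR called 0 of the 10, as for 0.0% of 20402 features, with 930 features at an unadjusted p under 0.05. DESeq2 also called 0 of 38850 features, with 1193 at an unadjusted p under 0.05. All 10 log2 fold changes were above 0 in edgeR, from 0.015 (SE 0.42) for FBL to 0.26 (SE 0.25) for POLR1B, with adjusted p from 0.978 to 0.999. DKC1, with the lowest unadjusted p of the 10, had 0.26 (SE 0.13, adjusted p = 0.978). For shCTRL VXN against shCTRL DMSO edgeR again called 0 of the 10, where 0.0098% of features were called and 384 features had an unadjusted p under 0.05. DESeq2 called 0.0817% of 22022 features, none of the 10, with 501 features at an unadjusted p under 0.05. Those log2 fold changes ran from -0.15 (SE 0.27) for NCL to 0.094 (SE 0.42) for FBL in edgeR, 6 of 10 below 0, each with an adjusted p of 1.

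Each labelled group held 1 library of the shCTRL V set, and its spread was wide. The absence of calls by label therefore does not show that the labelled groups had equal levels of these genes. FBL averaged 180.0 ± 69.6 CPM in shCTRL DMSO, 176 ± 65.7 in shSLC6A3 DMSO and 191 ± 72.2 in shCTRL VXN (SD, n = 3 each). Its 3 low libraries, at 99.7, 100.4 and 108 CPM, were 1 from each group. NCL averaged 1268 ± 269, 1468 ± 447 and 1137 ± 277 CPM in the same order, and NPM1 1219 ± 314, 1344 ± 424 and 1133 ± 324 CPM. The steadiest of the 10 by labelled group was DKC1, at 153.5 ± 9.05, 178.5 ± 29.9 and 150.9 ± 12.6 CPM. For these 4 genes the means differed by less than the larger SD. No gene of the 138 was called in either labelled comparison by edgeR.

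**Figure D5:**
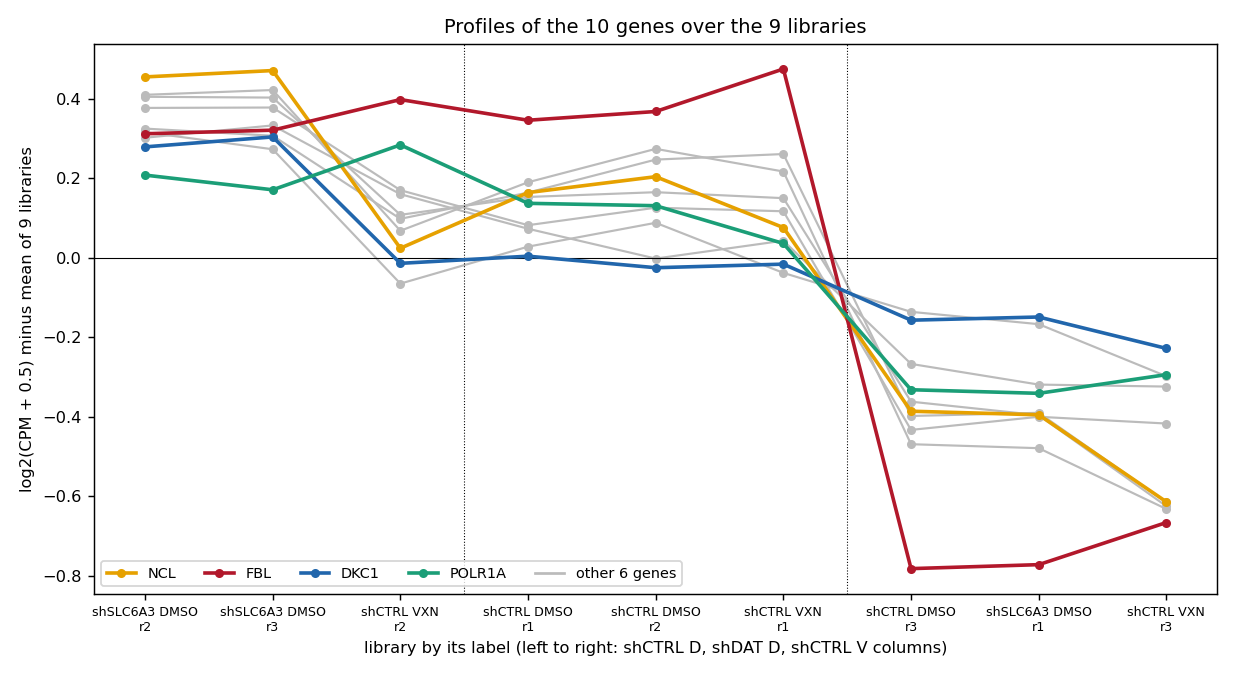
Profile of each gene over the 9 libraries, as log2(CPM + 0.5) minus the gene's own mean, with libraries ordered by the column sets of the deposited tables and divided by dotted lines. NCL, FBL, DKC1 and POLR1A are coloured; FBL stays high through the shDAT D set and drops furthest in the shCTRL V set, where DKC1 stays nearer to its mean.

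The 10 profiles over the 9 libraries were alike but not equal. Likeness was measured as the root mean square difference, on log2(CPM + 0.5) centred per gene, from the mean profile of the 10. POLR1B was closest at 0.0424, followed by NOP56 at 0.061, NOP58 at 0.0735, NCL at 0.0868, RRP9 at 0.0921 and NPM1 at 0.0966. POLR1A at 0.113, WDR43 at 0.155, DKC1 at 0.168 and FBL at 0.267 lay farther away. Among 9946 other genes with a mean of at least 10 CPM, the nearest to that mean profile was KARS1, a lysyl-tRNA synthetase, at 0.0195. Next came the large subunit assembly protein WDR12 at 0.029, PHIP and ILF2 at 0.0298 each, and NAE1 and the processome protein HEATR1 at 0.0302 each. MRPS30, a mitochondrial ribosomal protein, at 0.0323, the DNA repair enzyme APEX1 at 0.0333, CORO1C at 0.0356 and BAZ1A at 0.0369 completed the nearest 10. Of these 10 genes, WDR12 and HEATR1 were on the list of 138.

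Several of these genes host or resemble other RNAs, which limits their counts. There are 17 snoRNA genes inside 5 of them: 5 in NOP56, 4 in NOP58, 3 each in NCL and WDR43, and 2 in DKC1. The highest snoRNA count was 423 in 1 library, for SNORD86 in NOP56, against at least 7772 counts for NOP56 in each library. Reads where these snoRNA genes overlap host exons cannot be told apart from the host's. All of the snoRNA genes lie on the host's strand. Those in NCL and WDR43 lie wholly in introns, while those in NOP56 and DKC1 overlap annotated exons. DKC1 shares 61 exonic bases with MIR664B and NOP56 shares 66 with MIR1292. NPM1 has 46 processed copies with rows of their own, whose counts summed to 2.87% of NPM1's, and NOP56 has 3 that summed to 1.72%. These sums cover only counts given to the copies' rows. Reads that match both a gene and a copy were not examined, so how far they alter the 2 levels is not known.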

How the data were processed

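RNA of HCT116 cells was sequenced with a TruSeq RNA v2 kit on a NextSeq 500, per the labels' protocols. The submitters' processing notes name fastp 0.20.1, FastQC 0.11.9, STAR, DESeq2 1.34.0 and GRCh38; the counting program is not given in the sources used here, nor is its annotation. The authors deposited unnormalised counts for 61832 genes and repeat subfamilies in 9 libraries. Log2 fold changes of the 10 genes in the authors' tables are smaller in size than in the rerun; how the authors made them is not stated. The p-values deposited by the authors are from DESeq2, per the submitters' processing notes and file headers. The base mean signal deposited by the authors, a mean of normalised counts, was not used.

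Here CPM was computed on library totals. Labelled groups were compared with edgeR 4.0.16 (TMM, low-count filter, quasi-likelihood, R 4.3.3) over 20402 features, with Benjamini-Hochberg adjustment and calls under 0.05; alternatives were RLE factors, DESeq2 1.42.0, no filter, the 6 libraries alone, a replicate block and leaving out each library. DESeq2 reruns on the table's columns also left out each library. The fits of the labelled groups were also run on simulated counts, with a spread estimated within the column sets of the deposited tables. The labelled groups have a wider spread, so that run does not show how these tests perform on the real data. Count rows of repeat subfamilies held 1.681% to 2.121% of counts and were kept in the totals. Gene spans and lengths came from a GENCODE v29 annotation and promoters from RefSeq.

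The 10 genes, the 138 genes and the markers were chosen with earlier results of these data known. Named genes were the 10, the lowest 2 adjusted p per stage and direction in each deposited table, MYC, MKI67, RPL5, RPL11, MDM2 and CDKN1A, and the 10 nearest profiles. DDX49 and UTP20 were named too, because their adjusted p tied with that of TBL3 in the shDAT D comparison.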

Additional observations from a re-analysis of the deposited data

How the results depend on the processing

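In the shCTRL V comparison all 10 genes stayed called lower, and 99 to 128 of the 138 other genes were called, in the DESeq2 reruns without each library. Over all features, 44.0% were called in the authors' deposited table and 45.3% in the rerun without shCTRL VXN replicate 2. The shDAT D calls changed most. Of the 10 genes, edgeR called 0, DESeq2 scaled by library totals (chosen after seeing the data) 1, and the reruns without each library 0 to 9. Calls over all features moved too: edgeR called 0 of 20402 and library-total scaling 430 of 14048. The rerun without shCTRL VXN replicate 2 called 34.9% of all features. Of the 138, the same settings called 0, 9 and 0 to 108. The high values came without shCTRL VXN replicate 2, and why was not tested. FBL in that comparison ranged from -0.047 to 0.028 without each library.

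In the labelled comparisons, no setting called any of the 10. Signs changed without single libraries. For shCTRL VXN these ranges were DKC1 -0.054 to 0.028, FBL -0.19 to 0.36, NCL -0.30 to 0.023, NOP56 -0.22 to 0.11, NOP58 -0.24 to 0.14, NPM1 -0.28 to 0.10, POLR1A -0.089 to 0.16, POLR1B -0.10 to 0.19 and RRP9 -0.048 to 0.15. For shSLC6A3 they were FBL -0.26 to 0.29, NOP58 -0.031 to 0.33 and POLR1A -0.042 to 0.23. With the replicate block edgeR called 0 of the 10 and 0 of the 138 in both. Deviations of same-numbered libraries from their labelled group's mean correlated from -0.69 to 0.89. The sign followed membership of the shCTRL V set, of which each labelled group held 1 library. These correlations therefore cannot show whether the numbers pair the samples. Library totals, TMM and DESeq2 size factors moved the median of all genes by under 0.1 on the log2 scale. Depth limits SLC6A3 but not the 10 genes.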

Other observations

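MYC and the ribosomal protein gene RPL5 were ordered differently from most of the 10 genes among the libraries outside the shCTRL V set. MYC stood at 504, 466 and 439 CPM in the shDAT D set and at 463 CPM in shCTRL VXN replicate 2, all above the 372 and 371 CPM of shSLC6A3 DMSO replicates 2 and 3. NCL, NPM1, NOP56, NOP58, DKC1, POLR1B, RRP9 and WDR43 were instead highest in those latter libraries. RPL5 stood at 1128, 1127 and 1185 CPM in shDAT D and 1092 CPM in shCTRL VXN replicate 2, against 977 and 964 CPM. MYC has a log2 fold change of 0.13 (SE 0.079, adjusted p = 0.120) and RPL5 one of 0.11 (SE 0.052, adjusted p = 0.0797) in the authors' deposited table of the shDAT D comparison. Without shCTRL VXN replicate 2, the DESeq2 rerun gave MYC 0.25 (SE 0.053, adjusted p = 1.93e-05) and RPL5 0.15 (SE 0.042, adjusted p = 0.00135). Another ribosomal protein gene, RPL11, had 0.098 (SE 0.047, adjusted p = 0.0908) in that DESeq2 rerun and was not called.

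MDM2 and CDKN1A, targets of p53, were high where the 10 genes were low. MDM2 stood at 258 to 259 CPM in the 3 shCTRL V libraries and at 165.0 to 189 CPM in the other 6, and CDKN1A at 506 to 571 CPM against 170.0 to 222 CPM. The authors' deposited table for shCTRL V against shCTRL D gives MDM2 0.52 (SE 0.083, adjusted p = 2.00e-09), CDKN1A 1.49 (SE 0.093, adjusted p = 1.25e-56), RPL5 -0.17 (SE 0.052, adjusted p = 0.00275) and RPL11 -0.16 (SE 0.053, adjusted p = 0.00659). Without shCTRL VXN replicate 2 the DESeq2 rerun gave MDM2 0.44 (SE 0.039), CDKN1A 1.60 (SE 0.061), RPL5 -0.15 (SE 0.043) and RPL11 -0.16 (SE 0.047).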
